A study of Homo sapiens with 12 samples.

Results

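The 33 genes described here encode the machinery of fatty acid oxidation and its main regulators, and they were taken as a list by their roles, out of 19970 protein-coding genes of chromosomes 1 to 22 and X. The list was chosen with earlier results of these data known. All 33 were found in the RefSeq gene table and all 33 were covered by H3K27ac peaks in at least 2 of the 12 libraries. H3K27ac, acetylation of lysine 27 of histone H3, marks active promoters and enhancers. It was mapped by chromatin immunoprecipitation and sequencing in CFPAC1 and MiaPaCa2, established human pancreatic ductal adenocarcinoma cell lines, and the title of the study is about IRF1, an interferon-responsive transcription factor, and metabolism in low-grade pancreatic cancer cells. There were 6 groups of 2 libraries. Bulk CFPAC1 and bulk MiaPaCa2 were each profiled untreated and after 2 hours with human IFNbeta, a type I interferon, at 1000 U/ml. The wild-type clones were CFPAC1 cells infected with the lentiCRIPSv2 plasmid and cloned by dilution. The IRF1 knockout clones were made in the same way with a plasmid that also carried wild-type Cas9 and a guide RNA to IRF1, so each library of these groups is 1 clone, and wild-type and knockout clones alike had been infected and cloned. No interferon treatment is labelled for the clones. CFPAC1 was grown in IMDM and MiaPaCa2 in DMEM, so the line and its medium cannot be told apart.

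Long-chain fatty acids enter mitochondria as carnitine esters. CPT1 enzymes of the outer membrane make the ester, SLC25A20 carries it across the inner membrane and CPT2 turns it back into an acyl-CoA. Acyl-CoA dehydrogenases, hydratases, hydroxyacyl-CoA dehydrogenases and thiolases then shorten the chain in repeated rounds, and the electrons of the first step pass through ETFA, ETFB and ETFDH to the respiratory chain. Peroxisomes shorten very long and branched chains. PPARA and PPARD are nuclear receptors that respond to fatty acids, and PPARGC1A and PPARGC1B are coactivators that raise the output of oxidative genes.

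Coverage was measured as covered bp, the number of bases that called peaks overlay in the 5 kb before and the 5 kb after a gene end. For each gene the end with the larger mean over all 12 libraries was used. The RefSeq promoter table held 27 of the 33 members, and the end used was the outermost annotated start for 25 of these. Both the table and the gene list mark 1 start per gene, so starts further inside a gene are not marked. The 250 bases before the start of 5 members are shown because the results below turn on peaks over them or beside them. They are from RefSeq, build GRCh38.p14, 5′ to 3′ on the strand of the gene. CPT1A lies at chr11:68844278-68844527 on the minus strand, HADHB at chr2:26244689-26244938 on the plus strand, ACAA2 at chr18:49813534-49813783 on the minus strand, ABCD3 at chr1:94418139-94418388 on the plus strand and PPARGC1A at chr4:24472906-24473155 on the minus strand. Capitals in ACAA2 mark a match to the PPAR-RXR element described below.
CPT1A: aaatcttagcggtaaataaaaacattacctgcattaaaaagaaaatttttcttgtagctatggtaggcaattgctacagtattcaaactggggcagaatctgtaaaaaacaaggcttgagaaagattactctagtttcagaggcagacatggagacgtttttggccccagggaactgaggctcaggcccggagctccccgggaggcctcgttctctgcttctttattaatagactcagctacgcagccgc
HADHB: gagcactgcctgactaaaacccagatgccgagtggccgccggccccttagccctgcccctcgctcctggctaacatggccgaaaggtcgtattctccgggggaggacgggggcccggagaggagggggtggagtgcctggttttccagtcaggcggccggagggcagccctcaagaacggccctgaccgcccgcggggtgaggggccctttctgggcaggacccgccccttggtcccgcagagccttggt
ACAA2: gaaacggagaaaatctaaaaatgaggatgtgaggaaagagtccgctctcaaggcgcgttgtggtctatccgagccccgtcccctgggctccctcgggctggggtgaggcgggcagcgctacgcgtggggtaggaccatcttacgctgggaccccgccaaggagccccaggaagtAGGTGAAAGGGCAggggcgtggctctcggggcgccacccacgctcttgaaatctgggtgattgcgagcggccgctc
ABCD3: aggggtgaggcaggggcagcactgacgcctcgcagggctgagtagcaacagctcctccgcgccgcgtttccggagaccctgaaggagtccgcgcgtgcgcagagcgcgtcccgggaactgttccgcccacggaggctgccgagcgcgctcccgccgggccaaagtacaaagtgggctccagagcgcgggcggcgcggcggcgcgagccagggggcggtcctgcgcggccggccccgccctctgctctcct
PPARGC1A: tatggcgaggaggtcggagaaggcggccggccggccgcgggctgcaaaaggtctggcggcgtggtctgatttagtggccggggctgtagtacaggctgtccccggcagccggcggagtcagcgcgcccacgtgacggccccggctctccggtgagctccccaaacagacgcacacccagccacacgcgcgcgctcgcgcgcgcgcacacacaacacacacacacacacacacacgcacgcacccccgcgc

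Peaks covered these stretches in different ways. All 250 bases before the CPT1A start lay under a peak in all 8 CFPAC1 libraries, and 0 did in all 4 MiaPaCa2 libraries. The stretch before HADHB, which lies between the starts of HADHB and HADHA, and that before ACAA2 were covered over all 250 bases in all 12 libraries. The stretch before the ABCD3 start was covered over 122 to 250 bases in MiaPaCa2 and over 0 to 93 bases in CFPAC1, where 7 of 8 libraries had a peak on it. All 250 bases before the PPARGC1A start were covered in both IRF1 knockout clones and 0 in the other 10 libraries.

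Motifs were searched on both strands from 250 bases before to 50 bases after the start, in the 27 members with an entry and in 15812 promoters in all. A direct repeat of AGGTCA, the unit of the PPAR-RXR element, with 1 base between and at most 1 letter differing in each copy, was found in 1 member, ACAA2, 76 bases before its start. It was found in 1.51% of all promoters. The exact repeat was found in 0 members and in 0.019% of all promoters. The interferon response element core GAAANNGAA was found in 0 members and in 7.06% of all promoters, and TCAAGGTCA, an element of oestrogen-related receptors, in 0 members and in 0.24%. The cAMP response element TGACGTCA was found in ACAD9 and ACOX3, and in 2.59% of all promoters. The NRF1 element GCGCATGCG was found in ACAD10 and in 2.76%, and the ETS element ACTTCCG in ACAD10 and CPT2 and in 9.8%. A letter match is a description and not a bound site. The median GC content was 68% over members and 62.7% over all promoters.

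The deposited lists held 59896 to 109861 peaks per library and covered 63.6 to 94.8 Mb, and the read depth behind them is unknown. The labels name no separate cultures for the 2 bulk libraries of a group, so p-values there need not measure the spread between cultures. In every comparison they rest on the spread between libraries of a group, pooled over all 6 groups, bulk and clones together. Covered bp at ISG15, an interferon-stimulated gene, were 3682 and 3692 in untreated and 5752 and 5245 in treated CFPAC1, and 2329 and 2639 in untreated and 6003 and 5216 in treated MiaPaCa2, higher after treatment in both lines (adjusted p = 0.0427 and 0.00341, limma). Covered bp at IRF1 were 5485 and 5611 in wild-type and 7533 and 8924 in knockout clones, which does not check the knockout, since a guide-directed cut need not remove the marked chromatin. Of 10 epithelial markers, 10 were covered in every CFPAC1 group, while EPCAM, CDH1, KLF5, GRHL2 and ESRP1 were at 0 in all 4 MiaPaCa2 libraries. Of 7 mesenchymal markers, 4 were covered in MiaPaCa2, where ZEB2, CDH2 and FN1 were at 0, and 5 in bulk CFPAC1, where ZEB2 and TWIST1 were at 0. Their summed coverage was 12293 to 14804 bp in MiaPaCa2 and 14121 to 19113 bp in bulk CFPAC1. Of 4 blood cell markers 2 were covered in each group (398 to 3702 bp in sum) and PTPRC, which defines leukocytes, was at 0 in every library. Of 4 hepatocyte markers 1 to 3 were covered (518 to 8149 bp in sum) and ALB was at 0 in every library.

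Most of the pathway carried H3K27ac in both lines, as did most genes tested. Per library, 90.9 to 100% of the members were covered, beside 81.8 to 93.6% of all genes tested. Of the 33 genes, 29 were covered in all 12 libraries, and 27 had a peak within 500 bp of the end used in all 12. The shares of all genes for these 2 counts were not computed. The exceptions to coverage were ABCD3 and ACADL, covered in the 8 CFPAC1 libraries and at 0 in MiaPaCa2, PPARGC1A, covered in 7 CFPAC1 libraries and at 0 in MiaPaCa2, and CPT1C, the form of CPT1 best known from brain, at 0 in 1 treated CFPAC1 library. For ABCD3 this holds at its outermost end. At its start in the promoter table, 33258 bp further in, MiaPaCa2 had 2227 to 2478 bp. The median over the 33 genes lay between 1849 and 2351 covered bp per library, beside 1833 to 2249 over all 15509 genes tested. Median covered bp over the 12 libraries ran from 741 at PPARGC1A to 4892 at ETFB, a subunit of the electron transfer flavoprotein. The ETFB window also holds an end of CLDND2, so its coverage cannot be assigned to 1 of the 2 genes. HADHA and HADHB, the subunits of the mitochondrial trifunctional protein, start 307 bp apart and share 1 broad peak region of 3732 to 5429 bp, so their values are 1 measurement. A window was shared with another gene at 13 members. The peroxisomal genes EHHADH and HSD17B4 and the regulators PPARA and PPARD carried short coverage in every library, of 545 to 1806 bp.

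**Figure D1:**
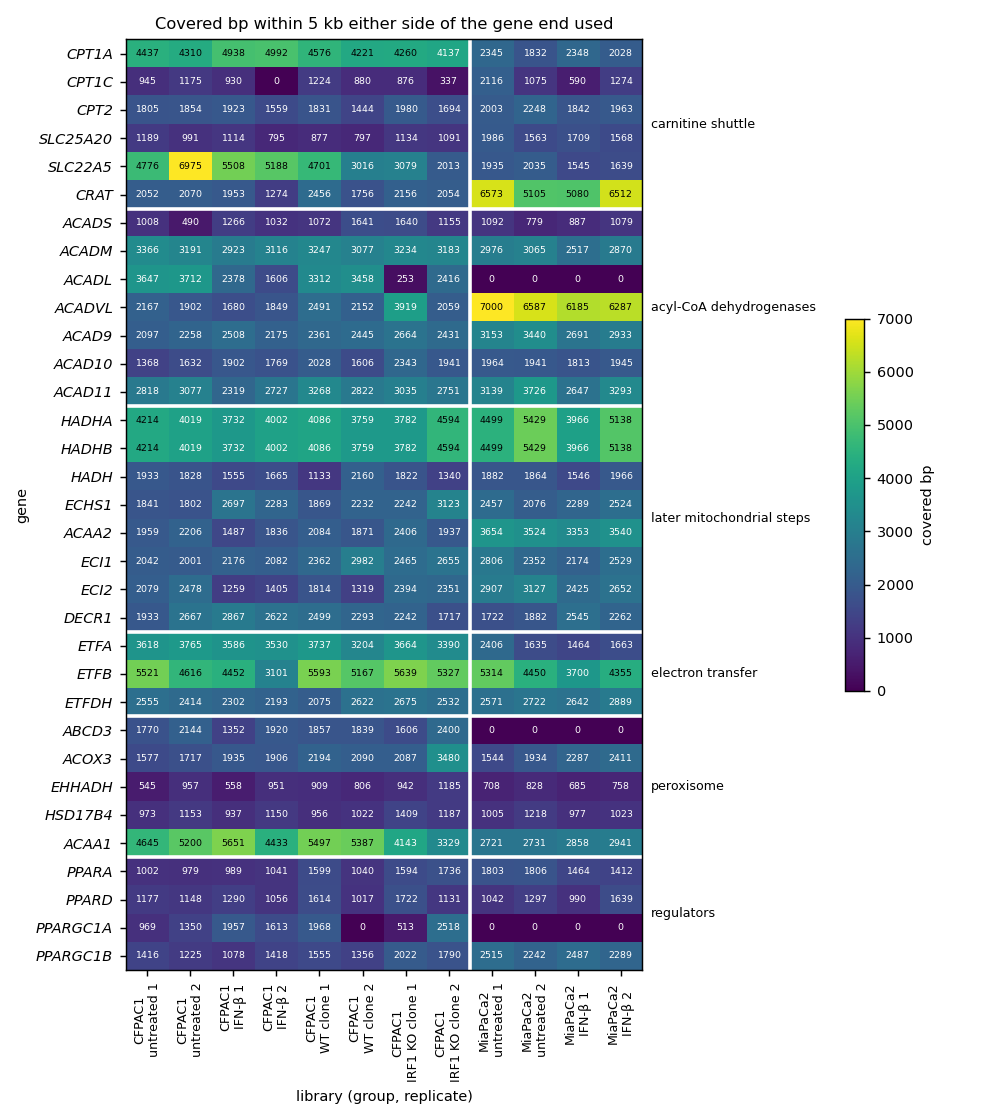
Covered bp in the 5 kb before and after the gene end used, for the 33 genes (rows, grouped by role) in the 12 libraries (columns, CFPAC1 left of the white line and MiaPaCa2 right). Colour and printed numbers give covered bp. ACADL, ABCD3 and PPARGC1A are at 0 in all 4 MiaPaCa2 libraries, and CRAT and ACADVL stand between 5080 and 7000 bp there.

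The lines differed at single genes in opposite directions. In untreated cells 15 of the 33 genes were called (limma, adjusted p under 0.05 over all genes tested), 9 with more and 6 with less coverage in MiaPaCa2 than in CFPAC1. The background was high: 48.9% of all genes tested were called, 29% higher and 19.9% lower, so the members' share stands near that of all genes. After IFNbeta, with other libraries, 13 were called, 6 higher and 7 lower in MiaPaCa2, beside 42.5% of all genes, 24.6% higher and 17.9% lower. The median difference over the 33 genes, on the log2(covered bp + 500) scale centred within each library, was 0.23 in untreated cells and 0.09 after IFNbeta, beside 0.14 and 0.10 over all genes. The untreated median was 0.12 without the second MiaPaCa2 library. In raw covered bp, the 2 groups did not overlap at 16 members with MiaPaCa2 higher and 9 with it lower in untreated cells, beside 42.6% and 30.5% of all genes, and at 10 and 9 after IFNbeta, beside 43.5% and 27.2%. Of the genes, 6 were called higher in MiaPaCa2 in both comparisons (SLC25A20, CRAT, ACADVL, ACAA2, ECI2 and PPARGC1B) and 6 were called lower in both (CPT1A, SLC22A5, ACADL, ACAA1, ETFA and ABCD3). ACAD9, ACAD10 and PPARA were called in untreated cells alone and PPARGC1A after IFNbeta alone. A difference between the lines in their response to IFNbeta was called for 0 members, so these 4 are not shown to differ between the comparisons. The other 17 were called in neither.

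**Figure D2:**
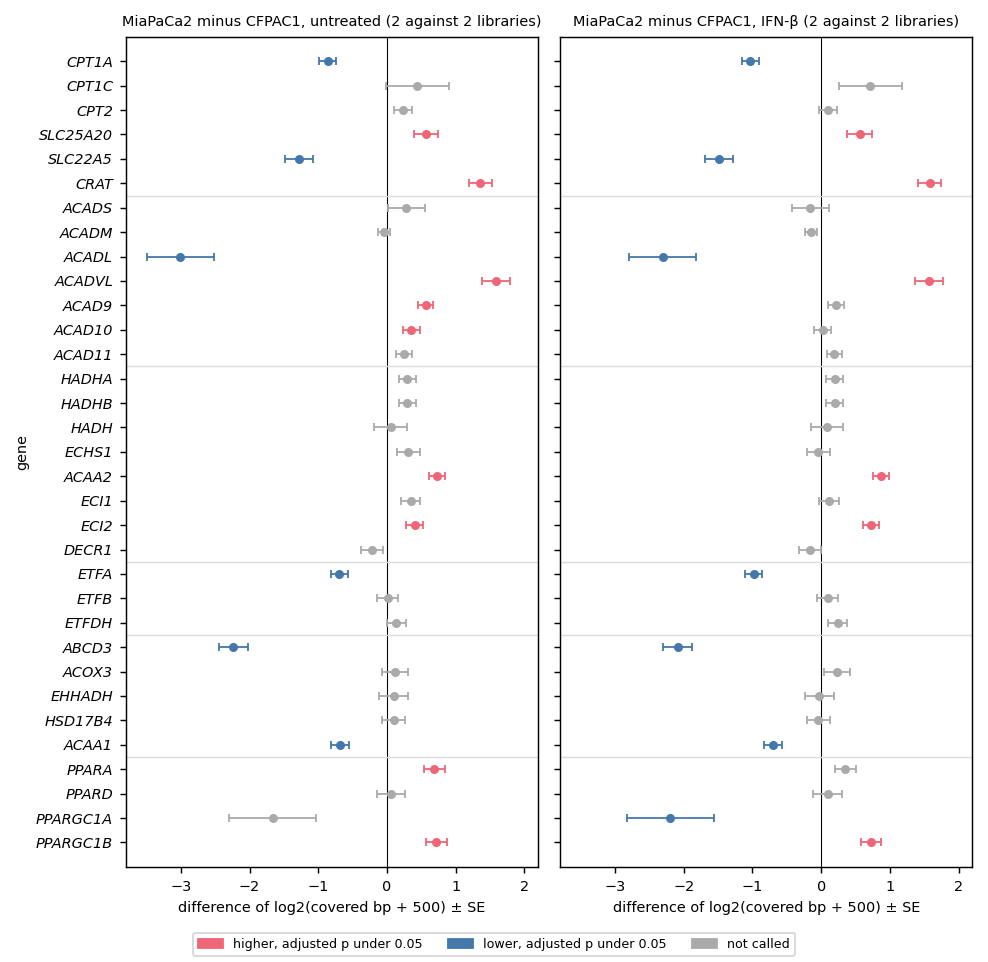
Difference between MiaPaCa2 and CFPAC1 in log2(covered bp + 500), centred within each library, with its standard error, for the 33 genes (rows, grouped by role), in untreated cells (left) and after IFNbeta (right), 2 libraries against 2. CRAT and ACADVL lie furthest to the right in both panels, and the positions of ACADL, ABCD3 and PPARGC1A, at 0 bp in MiaPaCa2, depend on the added 500 bp.

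In the carnitine shuttle, 2 of 6 genes were called higher and 2 lower in MiaPaCa2 in each comparison. Counts by role, here and below, stand beside 48.9% of all genes called in untreated cells and 42.5% after IFNbeta. CPT1A, the liver form of CPT1 and the rate-limiting step of mitochondrial oxidation (chromosome 11, 68754620 to 68844277), had 4437 and 4310 covered bp in untreated and 4938 and 4992 in treated CFPAC1, and 4137 to 4576 in the clones. In MiaPaCa2 it had 2345 and 1832 untreated and 2348 and 2028 treated. No MiaPaCa2 library reached the lowest CFPAC1 library. The difference was -0.86 ± 0.12 (log2, SE) in untreated cells (adjusted p = 0.000344, limma) and -1.03 ± 0.12 after IFNbeta (adjusted p = 0.000114, limma). Most of the difference lay at the outermost start. Within 2 kb of it covered bp were 1751 to 2400 in CFPAC1 and 0 in all 4 MiaPaCa2 libraries, whereas a further peak began 2580 to 2720 bp inside the gene in all 12 libraries.

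SLC22A5, the plasma membrane carnitine importer OCTN2 (chromosome 5, 132369710 to 132395612), had 4776 and 6975 covered bp in untreated CFPAC1, 5508 and 5188 in treated CFPAC1, 1935 and 2035 in untreated MiaPaCa2 and 1545 and 1639 in treated MiaPaCa2. The difference was -1.28 ± 0.20 untreated (adjusted p = 0.000612, limma) and -1.49 ± 0.20 after IFNbeta (adjusted p = 0.000249, limma). Coverage within 500 bp of the start overlapped between the lines, with 808 to 1001 bp in CFPAC1 and 873 to 1001 bp in MiaPaCa2. Outside the gene bulk CFPAC1 had 2149 to 3833 bp and MiaPaCa2 510 to 632 bp, and inside it bulk CFPAC1 had 2017 to 3142 bp and MiaPaCa2 958 to 1425 bp. The clones had 1027 to 2684 bp outside and 875 to 2052 bp inside.

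CRAT, carnitine acetyltransferase, which buffers short acyl-CoA as carnitine esters, went the other way. It had 2052 and 2070 covered bp in untreated CFPAC1, 1953 and 1274 in treated CFPAC1, 6573 and 5105 in untreated MiaPaCa2 and 5080 and 6512 in treated MiaPaCa2, a difference of 1.36 ± 0.17 untreated (adjusted p = 0.000126, limma) and 1.58 ± 0.17 after IFNbeta (adjusted p = 4.77e-05, limma). The MiaPaCa2 libraries held 4 to 8 peaks in the window and the CFPAC1 libraries 2 or 3. The window (chromosome 9, 129105793 to 129115793) also holds an end of PTPA, so the coverage cannot be assigned to 1 of the 2 genes. SLC25A20, the carnitine-acylcarnitine translocase (chromosome 3, 48856926 to 48898882), had 1189 and 991 bp in untreated CFPAC1, 1114 and 795 in treated CFPAC1, 1986 and 1563 in untreated MiaPaCa2 and 1709 and 1568 in treated MiaPaCa2. It was called in both comparisons (0.57 ± 0.18, adjusted p = 0.0232, and 0.56 ± 0.18, adjusted p = 0.0286, limma). The peak of MiaPaCa2 extended 757 to 815 bp outside the gene, that of CFPAC1 0 to 269 bp. The untreated call was lost without the second CFPAC1 library (adjusted p = 0.131) or the first MiaPaCa2 library (0.13), and the treated call without the second CFPAC1 library (0.186) or the first MiaPaCa2 library (0.177). With equal numbers of peaks both were lost (0.0799 and 0.0933), and with stricter peaks the treated one (0.066).

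CPT2, the inner membrane enzyme of the shuttle (chromosome 1, 53196824 to 53214197), was not called. It had 1805 and 1854 covered bp in untreated CFPAC1 and 2003 and 2248 in untreated MiaPaCa2, and over all libraries it ran from 1444 to 2248 bp. The differences of 0.23 ± 0.13 and 0.10 ± 0.13 had adjusted p = 0.183 and 0.597 (limma). CPT1C lay between 0 and 2116 bp, with more spread within groups than any other shuttle gene by the standard error of its difference (0.46).

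Acyl-CoA dehydrogenases take the first step of each round, and ACADS, ACADM, ACADL and ACADVL are named for the chain lengths they prefer. Among the 7 members of this kind, 3 were called higher and 1 lower in untreated MiaPaCa2, and 1 higher and 1 lower after IFNbeta. ACADVL, for very long chains (chromosome 17, 7217125 to 7225266), had 2167 and 1902 covered bp in untreated CFPAC1, 1680 and 1849 in treated CFPAC1, 7000 and 6587 in untreated MiaPaCa2 and 6185 and 6287 in treated MiaPaCa2. The difference was 1.59 ± 0.20 (adjusted p = 0.000146, limma) and 1.57 ± 0.20 (adjusted p = 0.000168, limma). CFPAC1 libraries held a peak from 1940 to 2436 bp inside the gene onwards. Within 500 bp of the outermost start 7 of 8 CFPAC1 libraries were at 0, the exception being IRF1 knockout clone 1 with 265 bp, and the MiaPaCa2 libraries had 372 to 814 bp. DLG4 has an end in the same window, so the outer part may belong to either gene.

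ACADL, for long chains (chromosome 2, 210187923 to 210225447), was measured at its 3′ end, which carried the larger coverage. It had 3647 and 3712 bp in untreated CFPAC1, 2378 and 1606 in treated CFPAC1 and 0 in all 4 MiaPaCa2 libraries. No peak lay anywhere in the gene body in MiaPaCa2, where the CFPAC1 libraries had 3 to 7 peaks. The lower coverage was called in untreated cells (adjusted p = 0.000742, limma) and after IFNbeta (adjusted p = 0.00385). At its start ACADL had 270 to 990 bp in CFPAC1 and again 0 in MiaPaCa2.

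ACAD9, a dehydrogenase that also serves in the assembly of respiratory complex I (chromosome 3, 128879620 to 128913114), had 2097 and 2258 bp in untreated CFPAC1, 2508 and 2175 in treated CFPAC1, 3153 and 3440 in untreated MiaPaCa2 and 2691 and 2933 in treated MiaPaCa2. It was called in untreated cells (0.56 ± 0.11, adjusted p = 0.00284, limma) and not after IFNbeta (0.22 ± 0.11, adjusted p = 0.158). All 4 MiaPaCa2 libraries lay above all 8 CFPAC1 libraries. ACAD10 (chromosome 12, 111686053 to 111757099) had 1368 and 1632 bp in untreated CFPAC1, 1902 and 1769 in treated CFPAC1, 1964 and 1941 in untreated MiaPaCa2 and 1813 and 1945 in treated MiaPaCa2. Its call in untreated cells (0.36 ± 0.12, adjusted p = 0.0384, limma) did not hold without any 1 of the 4 libraries (adjusted p = 0.0547 to 0.192) and was lost in 10 of 14 alternatives in all (highest 0.333). ACADM, for medium chains and the cause of the commonest inherited defect of the pathway, was among the steadiest members, with 2517 to 3366 bp in all libraries. ACADS and ACAD11 were not called either.

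Of 8 genes grouped here under the later mitochondrial steps, 2 were called higher in MiaPaCa2 in each comparison and 0 lower. ACAA2, the mitochondrial thiolase that cuts off acetyl-CoA (chromosome 18, 49782164 to 49813533), had 1959 and 2206 bp in untreated CFPAC1, 1487 and 1836 in treated CFPAC1, 3654 and 3524 in untreated MiaPaCa2 and 3353 and 3540 in treated MiaPaCa2. The difference was 0.72 ± 0.12 (adjusted p = 0.000795, limma) and 0.87 ± 0.12 (adjusted p = 0.000269, limma). Most of the extra length lay inside the gene, 2049 to 2280 bp in MiaPaCa2 and 572 to 1243 bp in CFPAC1, next to the promoter that holds the PPAR-RXR match printed above. ECI2, an isomerase for unsaturated chains (chromosome 6, 4115706 to 4135575), had 2079 and 2478 bp in untreated CFPAC1, 1259 and 1405 in treated CFPAC1, 2907 and 3127 in untreated MiaPaCa2 and 2425 and 2652 in treated MiaPaCa2. It was called in both comparisons (0.40 ± 0.12, adjusted p = 0.0188, and 0.72 ± 0.12, adjusted p = 0.000871, limma). Its untreated call was lost without the first CFPAC1 library (adjusted p = 0.124) or the second MiaPaCa2 library (0.101), without centring (0.0728), with stricter peaks (0.0562) and with only the 4 libraries in the fit (0.0568). HADHA and HADHB (0.30 ± 0.12 and 0.20 ± 0.12), HADH, ECHS1, ECI1 and DECR1 had differences between -0.21 and 0.34, and none was called. In untreated cells their raw covered bp did not overlap between the lines except at HADH, with DECR1 lower in MiaPaCa2 and the others higher. Such non-overlap was common, at 42.6% of all genes tested with MiaPaCa2 higher and 30.5% with it lower. HADHA and HADHB, which are 1 measurement (adjusted p = 0.0732, limma), and ECI1 (0.0719) lay near the threshold.

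Of the electron transfer genes 1 of 3 was called. ETFA, the alpha subunit of the flavoprotein that takes electrons from the dehydrogenases (chromosome 15, 76215353 to 76311469), had 3618 and 3765 bp in untreated CFPAC1, 3586 and 3530 in treated CFPAC1, 2406 and 1635 in untreated MiaPaCa2 and 1464 and 1663 in treated MiaPaCa2. The difference was -0.69 ± 0.12 (adjusted p = 0.00138, limma) and -0.98 ± 0.12 (adjusted p = 0.000164, limma). Inside the gene the lines overlapped, with 949 to 1259 bp in CFPAC1 and 996 to 1211 bp in MiaPaCa2. Outside it CFPAC1 had 2254 to 2595 bp, in a second peak beyond the start, and MiaPaCa2 460 to 1194 bp. ETFB, its partner, and ETFDH, which passes the electrons on to ubiquinone, differed by 0.01 ± 0.15 and 0.14 ± 0.14 in untreated cells and were not called. At the ETFB start of the promoter table, 11546 bp from the end used, all 12 libraries were at 0.

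**Figure D3:**
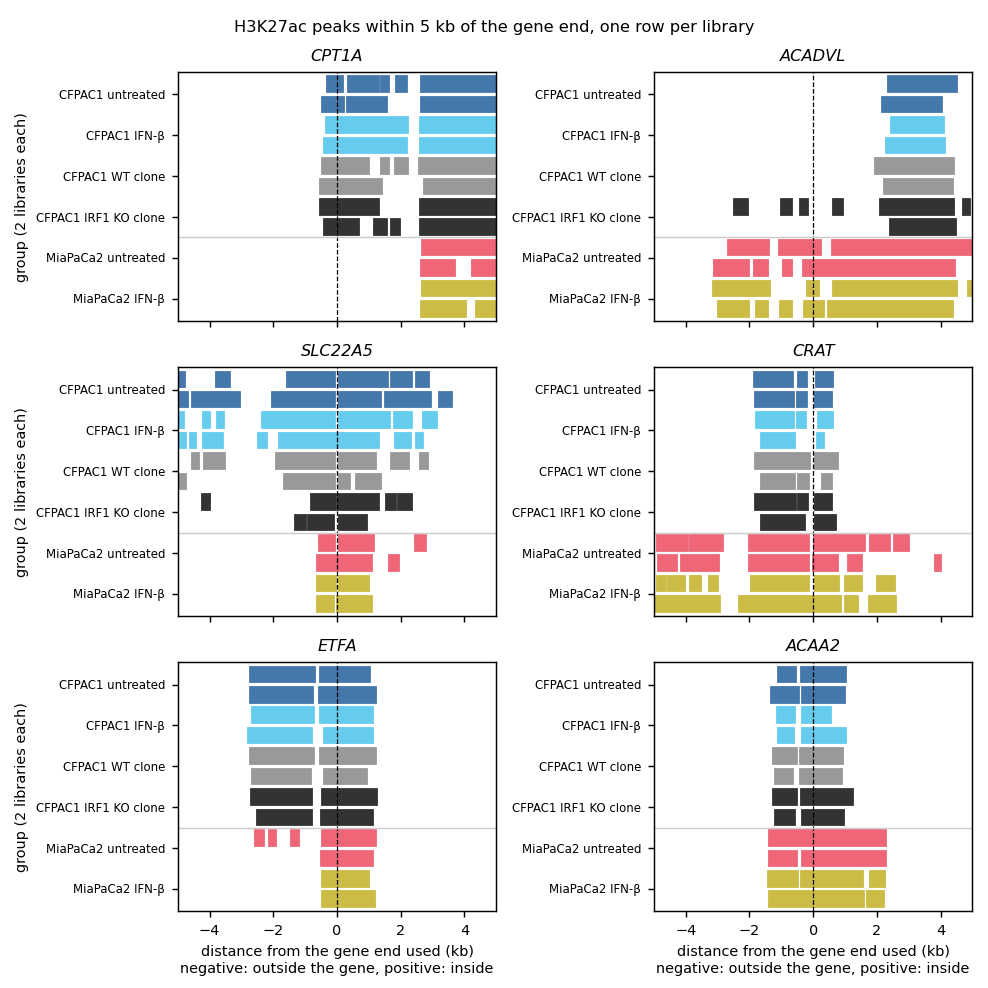
Peaks within 5 kb of the gene end used at 6 genes, 1 row per library, with distance in kb (negative outside the gene, positive inside). At CPT1A the rows of the 8 CFPAC1 libraries hold peaks across the start and those of the 4 MiaPaCa2 libraries do not, at ETFA the outer peak is in all 8 CFPAC1 rows, and at ACADVL and CRAT the MiaPaCa2 rows hold peaks that most CFPAC1 rows lack.

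Of 5 peroxisomal genes 2 were called, both lower in MiaPaCa2 in both comparisons. ACAA1, the peroxisomal thiolase (chromosome 3, 38122715 to 38137127), had 4645 and 5200 bp in untreated CFPAC1, 5651 and 4433 in treated CFPAC1, 2721 and 2731 in untreated MiaPaCa2 and 2858 and 2941 in treated MiaPaCa2. The difference was -0.69 ± 0.13 (adjusted p = 0.00199, limma) and -0.70 ± 0.13 (adjusted p = 0.00198, limma). It lay inside the gene, where untreated and treated CFPAC1 had 2014 to 2986 bp and MiaPaCa2 637 to 884 bp. Within 2 kb of the end the difference turned to 0.12 (adjusted p = 0.245) and 0.06 (0.578). MYD88 has an end in this window. ABCD3, the importer of acyl-CoA into peroxisomes (chromosome 1, 94385131 to 94518663), had 1770 and 2144 bp in untreated and 1352 and 1920 in treated CFPAC1 and 0 in all 4 MiaPaCa2 libraries at its outermost annotated end (adjusted p = 2.13e-05 and 3.45e-05, limma). At the start of the promoter table, 33258 bp further in, all 12 libraries were covered, with 2606 to 3348 bp in CFPAC1 and 2227 to 2478 bp in MiaPaCa2, and there the gene was not called (adjusted p = 0.135 and 0.172). ACOX3, EHHADH and HSD17B4 differed by -0.04 to 0.23 and were not called.

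Among the regulators, PPARGC1B (chromosome 5, 149730310 to 149857959) was called higher in MiaPaCa2 in both comparisons. It had 1416 and 1225 bp in untreated CFPAC1, 1078 and 1418 in treated CFPAC1, 2515 and 2242 in untreated MiaPaCa2 and 2487 and 2289 in treated MiaPaCa2 (0.72 ± 0.15, adjusted p = 0.00284, and 0.73 ± 0.15, adjusted p = 0.00304, limma). These values are from its outermost annotated start. At the start of the promoter table, 41630 bp further in, the first untreated CFPAC1 library had 392 bp and all others 0, so the gene was not tested there. PPARA (chromosome 22, 46150526 to 46243756) had 1002 and 979 bp in untreated CFPAC1, 989 and 1041 in treated CFPAC1, 1803 and 1806 in untreated MiaPaCa2 and 1464 and 1412 in treated MiaPaCa2. It was called in untreated cells (0.69 ± 0.15, adjusted p = 0.00426, limma) and not after IFNbeta (0.35 ± 0.15, adjusted p = 0.0879). The 4 MiaPaCa2 libraries overlapped the clones, which had 1040 to 1736 bp. PPARD differed by 0.06 and 0.09 and was not called.

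PPARGC1A stood apart from its relative. At its 3′ end (chromosome 4, 23792021 to 24472905) it had 969 and 1350 bp in untreated CFPAC1, 1957 and 1613 in treated CFPAC1 and 0 in all 4 MiaPaCa2 libraries. The whole gene body held 10 to 40 peaks in CFPAC1 libraries and 0 in MiaPaCa2. At the 3′ end the lower coverage was called after IFNbeta (adjusted p = 0.0193, limma), a call lost without any 1 of the 4 libraries (adjusted p = 0.0629 to 0.0915). That call was also lost with equal numbers of peaks (0.0573), with stricter peaks (0.0586) and with starts in place of the 3′ end (0.916). In untreated cells the member was not called (adjusted p = 0.0537), and passed in 3 of 13 alternatives, an offset of 100 bp, both ends and only the 4 libraries (lowest 0.00312).

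Across all 8 CFPAC1 and all 4 MiaPaCa2 libraries, bulk and clones together, the covered bp of 11 members did not overlap between the lines. SLC25A20, CRAT, ACADVL, ACAD9, ACAA2 and PPARGC1B were higher in every MiaPaCa2 library than in any CFPAC1 library, and 18.2% of all genes tested did the same. CPT1A, ACADL, ACAA1, ETFA and ABCD3 were lower in every MiaPaCa2 library, beside 17.2% of all genes. SLC22A5, called lower, overlapped through IRF1 knockout clone 2 with 2013 bp.

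Other genes of oxidative metabolism were taken from lists beside the 33. The share called ran from 32% to 62.5% over these lists in untreated cells, beside 48.9% of all genes tested (29% higher and 19.9% lower). After IFNbeta it ran from 32% to 58.3%, beside 42.5% (24.6% higher and 17.9% lower). Of 34 further fatty acid oxidation genes tested, 11 were called higher and 6 lower in untreated MiaPaCa2, and 10 and 5 after IFNbeta. Of 21 genes of fatty acid uptake and activation, 2 were higher (SLC27A4 and SLC27A5) and 6 lower in untreated MiaPaCa2, and 2 (SLC27A5 and ACSL1) and 6 after IFNbeta, with medians of -0.35 and -0.26 beside 0.14 and 0.10 over all genes. Of 24 other regulators of oxidative metabolism, 8 were higher and 7 lower untreated, and 7 and 7 after IFNbeta. Of 7 ketone body genes, BDH1 and SLC16A1 were called higher and SLC16A7 lower in both comparisons. Of 25 genes of the tricarboxylic acid cycle and pyruvate dehydrogenase, 6 were higher and 2 lower (ACO1 and IDH2) untreated, and 5 higher (IDH3B, OGDH, PDHA1, PDHB and PDHX) and 3 lower (IDH2, DLST and FH) after IFNbeta. The lists other than uptake and activation, in the order given, had medians of 0.14, 0.20, -0.26 and 0.27 untreated. After IFNbeta these were 0.05, 0.09, -0.25 and 0.13. Single genes of the lists were named after their values were seen, because each count was small.

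After 2 hours of IFNbeta 0 of the 33 genes were called in CFPAC1 (limma), where 0.987% of all genes tested were called, 0.677% higher and 0.309% lower, and 0 in MiaPaCa2, where 0.651% were, 0.561% higher and 0.0903% lower. At an unadjusted p under 0.05 there were 5 members in CFPAC1 and 2 in MiaPaCa2, beside 1744 and 1131 of all 15509 genes tested. The median change over the members was 0.08 in CFPAC1 and 0.00 in MiaPaCa2, beside 0.04 and 0.03 over all genes. The treated CFPAC1 libraries covered 76.9 and 76.6 Mb in sum and the untreated ones 84.7 and 94.8 Mb, and in MiaPaCa2 the treated covered 63.6 and 77.1 Mb and the untreated 78.2 and 71.8 Mb. Changes are given relative to each library's mean. Without that centring the medians in CFPAC1 were -0.06 over members and -0.10 over all genes, and the genes called in CFPAC1 went from 105 higher and 48 lower to 67 higher and 75 lower. In raw covered bp the groups did not overlap at 7 members higher and 14 lower in treated CFPAC1, beside 8.92% and 39% of all genes, and at 3 higher and 8 lower in treated MiaPaCa2, beside 8.23% and 20.9%. The untreated libraries of each line also enter the line comparison above.

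ECI2 had the lowest adjusted p in CFPAC1, with 2079 and 2478 bp untreated and 1259 and 1405 treated (-0.45 ± 0.12, adjusted p = 0.13, limma). It passed the threshold with equal numbers of peaks per library (adjusted p = 0.0485) and with stricter peaks (0.0328), and over all its alternatives the adjusted p ran from 0.0328 to 0.529. In MiaPaCa2 its values were 2907 and 3127 untreated and 2425 and 2652 treated (-0.13 ± 0.12). ECHS1, the short-chain hydratase, had 1841 and 1802 bp untreated and 2697 and 2283 treated in CFPAC1 (0.51 ± 0.17, adjusted p = 0.251), CPT1A differed by 0.31 ± 0.12 (adjusted p = 0.361) and ACADS, for short chains, had 1008 and 490 bp untreated and 1266 and 1032 treated (0.57 ± 0.27, adjusted p = 0.468). ACADL, with 3647 and 3712 bp untreated and 2378 and 1606 treated, and CPT1C, with 945 and 1175 bp untreated and 930 and 0 treated, were lower in both treated libraries (-0.62 ± 0.49 and -0.73 ± 0.46) with adjusted p of 0.727 and 0.629. The CPT1C value rested on the second treated library, at 0 bp: without it the difference was 0.03, and without the first -1.50. That of ACADL was -0.38 without the second and -0.86 without the first. PPARGC1A was higher in both treated libraries (0.61 ± 0.64, adjusted p = 0.826). None of these passed the threshold.

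In MiaPaCa2, DECR1, a reductase for polyunsaturated chains, had 1722 and 1882 bp untreated and 2545 and 2262 treated (0.41 ± 0.16, adjusted p = 0.55, limma), and in CFPAC1 it had 1933 and 2667 untreated and 2867 and 2622 treated (0.37 ± 0.16, adjusted p = 0.43). ACOX3, a peroxisomal oxidase, had 1544 and 1934 bp untreated and 2287 and 2411 treated in MiaPaCa2 (0.43 ± 0.19, adjusted p = 0.674). ETFB, SLC22A5 and ACAA1 differed by -0.17 ± 0.15, -0.17 ± 0.20 and 0.16 ± 0.13 in MiaPaCa2, each with an adjusted p of 0.985. The difference between the lines in their response was called for 0 of 33 members and 0.058% of all genes (0.0258% higher and 0.0322% lower in MiaPaCa2). At an unadjusted p under 0.05 there were 0 members, beside 1158 of all 15509 genes tested. The lowest adjusted p was 0.705, at ACAD9 (-0.34 ± 0.16).

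Few of all genes tested were called after IFNbeta, 0.987% in CFPAC1 and 0.651% in MiaPaCa2, and nearby pathways likewise held few calls. In CFPAC1 the further fatty acid oxidation, uptake, regulator, ketone body and tricarboxylic acid lists had 0 called genes. In MiaPaCa2 ACSL5, a long-chain acyl-CoA synthetase, went from 0 in both untreated libraries to 1058 and 924 bp (adjusted p = 0.000657, limma), and NRIP1, a corepressor of oxidative genes, from 0 to 424 and 1065 bp (adjusted p = 0.00476). NRIP1 was lost with stricter peaks, with a window of 2 kb and with only the 4 libraries in the fit (highest adjusted p = 0.651). In CFPAC1 both genes were covered in all 8 libraries, with 5424 to 6874 bp. The response of ACSL5 differed between the lines (adjusted p = 0.0143), a call lost without any 1 of 5 of the 8 bulk libraries, the 4 of CFPAC1 and the first treated MiaPaCa2 library (adjusted p up to 0.104), and also with a window of 2 kb or only the bulk libraries in the fit (up to 0.262).

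**Figure D4:**
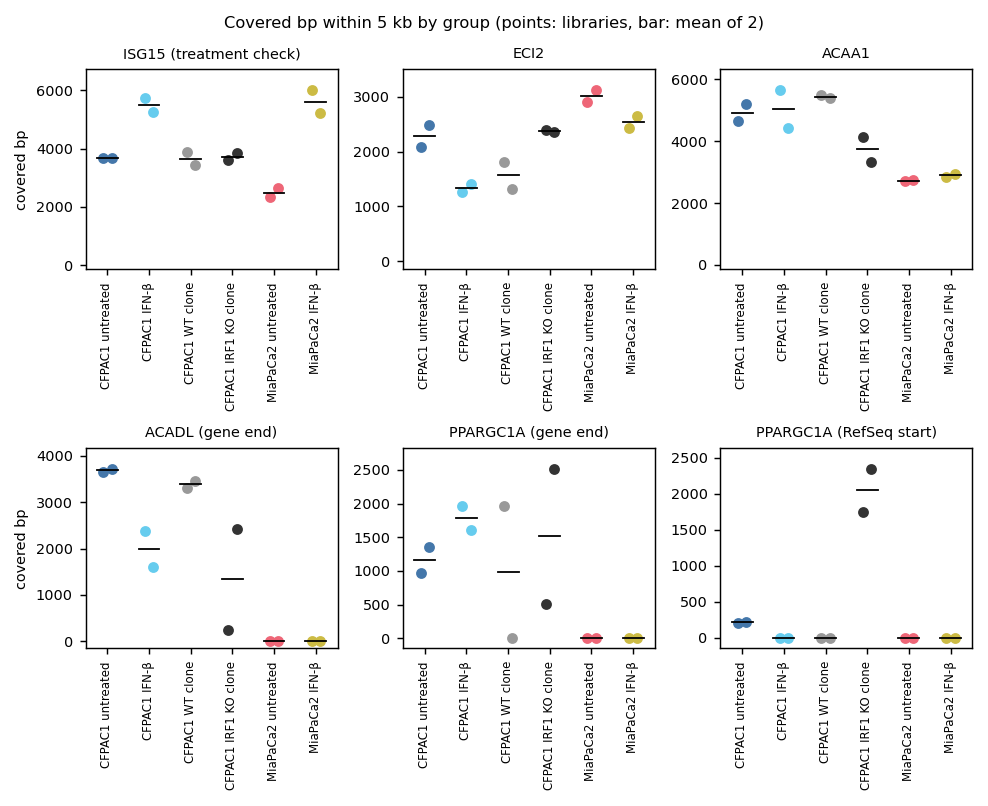
Covered bp within 5 kb in each library (points) and the mean of 2 (bar), by group, at ISG15, a check of the treatment, and at 4 members, with PPARGC1A at its 3′ end and at its RefSeq start. ISG15 is higher in both treated groups, ECI2 is at 1259 and 1405 bp in treated CFPAC1, ACAA1 at 4143 and 3329 bp in the knockout clones, and the PPARGC1A start is above 221 bp only in the knockout clones, with 1742 and 2349 bp.

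Between IRF1 knockout and wild-type clones 0 of 33 members were called (limma), where 1.25% of all genes tested were called, 0.709% higher and 0.542% lower. At an unadjusted p under 0.05 there were 4 members, beside 2236 of all 15509 genes tested. In raw covered bp the clones did not overlap at 6 members higher and 4 lower in the knockout, beside 25.9% and 11.5% of all genes. Without centring, the genes called went from 110 higher and 84 lower to 147 higher and 46 lower. The median over members was -0.03, beside -0.05 over all genes. ACAA1 had the lowest adjusted p, with 5497 and 5387 bp in wild-type and 4143 and 3329 bp in knockout clones (-0.61 ± 0.13, adjusted p = 0.063). The clones did not overlap there. Inside the gene wild-type clones had 3030 and 2996 bp and knockout clones 1904 and 995, while outside it they had 2467 and 2391 against 2239 and 2334. ACAA1 passed the threshold with equal numbers of peaks (adjusted p = 0.0271), with stricter peaks (0.0288) and without knockout clone 1 (0.0275), and its adjusted p over all alternatives ran from 0.0271 to 0.457.

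ACADL had 3312 and 3458 bp in wild-type and 253 and 2416 bp in knockout clones (-1.50 ± 0.49, adjusted p = 0.199, limma), and passed the threshold without knockout clone 2 (-2.49, adjusted p = 0.00904), when the 253 bp of knockout clone 1 stood alone. Without knockout clone 1 the difference was -0.51. SLC22A5 had 4701 and 3016 bp in wild-type and 3079 and 2013 bp in knockout clones (-0.62 ± 0.20, adjusted p = 0.197), with overlap. ECI2 had 1814 and 1319 bp in wild-type and 2394 and 2351 bp in knockout clones (0.37 ± 0.12, adjusted p = 0.191), without overlap. DECR1, CPT1C and ECHS1 differed by -0.34 ± 0.16, -0.63 ± 0.46 and 0.20 ± 0.17 (adjusted p = 0.371, 0.58 and 0.638). CPT1A (-0.17 ± 0.12), CPT2 (0.02 ± 0.13), PPARA (0.16 ± 0.15) and ABCD3 (-0.04 ± 0.21) were not called.

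PPARGC1A differed by end. At the 3′ end the clones overlapped, with 1968 and 0 bp in wild-type and 513 and 2518 bp in knockout clones. At the RefSeq start, whose upstream bases are printed above, wild-type clones were at 0 and knockout clones had 1742 and 2349 bp, while untreated CFPAC1 had 200 and 221 bp and treated CFPAC1 0. With starts used for all genes, this member was called higher in the knockout clones (adjusted p = 0.00401, limma). The gene body held 16 and 10 peaks in the wild-type and 18 and 40 in the knockout clones. Of the nearby pathways, the enoyl-CoA isomerase ECH1 was called lower in knockout clones, with 4315 and 4399 bp against 2867 and 2564 (adjusted p = 0.0343), and so was the pyruvate dehydrogenase component PDHX, with 2483 and 1557 bp against 487 and 522 (adjusted p = 0.00558). ECH1 lost its call without wild-type clone 1, wild-type clone 2 or knockout clone 2 (adjusted p up to 0.175) and in 6 of 9 other settings (up to 0.332). PDHX lost it with a window of 2 kb, both ends, starts or only the 4 clones in the fit (up to 0.99), and kept it without any 1 clone. The summed coverage of the 10 epithelial markers was 67764 and 72905 bp in wild-type and 50177 to 60968 bp in knockout clones, with 0 of 10 called and a median of -0.33. Its part in these differences was not tested.

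The fold enrichment the authors' caller gave each peak describes strength within a library and is not compared between libraries. In each library the strongest peak of the median member stood at the 86.1 to 91.5 percentile of that library's peaks. This ranks the largest peak of a window against all single peaks. The same value over all genes tested was not computed, so it is not shown to be particular to the members. ACAD9 was the strongest member in 3 of the 4 MiaPaCa2 libraries, with folds of 42.8 to 64.9 and percentiles of 99.6 to 99.9, and CRAT in the other, with a fold of 46.8. ACAA1 led in both treated CFPAC1 libraries, with folds of 37.2 and 27.8. The leading members of the other CFPAC1 libraries were CPT1A, DECR1, ETFB, ACAA2, ETFA and ECI2. The leading peaks of ACAA1, CRAT and ETFB lay outside these genes, in windows that also hold ends of MYD88, PTPA and CLDND2. They cannot be assigned to the members. On the genes themselves the strongest peaks there had folds of 12.4 and 6.7 at ACAA1, 29.7 at CRAT and 17.6 at ETFB. In MiaPaCa2 the CPT1A peak inside the gene stood at the 76.9 to 80.0 percentile, and in CFPAC1 the strongest CPT1A peak at the 85.7 to 98.9 percentile.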

How the data were processed

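The 12 narrowPeak lists were made by the authors, 1 per library. Per the submitters' processing notes, the tools were Trimmomatic 0.38, Bowtie2 2.2.6, SAMtools and MACS2 2.1.0.20150731, with build GRCh38. Each deposited list gives a peak's fold enrichment (a ratio), its p-value and q-value as −log10, and an integer score, which was not used. The fold is the authors' and served only to describe peaks within a library. Read depth is not given in the sources used here, so no interval for depth was computed. The labels name 2 sequencers without assigning them to libraries.

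Genes and ends came from the RefSeq table of GRCh38.p14, and promoter sequences from RefSeq. Peaks outside chromosomes 1 to 22 and X were left out. Overlapping peaks were merged, and bp covered within 5000 bp of each gene end were counted. The end with the larger mean over the 12 libraries was used. A gene was tested if it was covered in at least 2 libraries. Values were log2(covered bp + 500), centred on each library's mean. 1 limma 3.58.1 model (R 4.3.3) over all 6 groups, with a trended prior, gave 6 comparisons with Benjamini-Hochberg adjustment over all genes tested, called at 0.05. A fold is on this offset scale and understates changes of low genes. With 2 libraries per group the pooled spread of all 6 groups carries the tests. The fit was tested on simulated data. Coverage and figures used Python 3.11.15 with numpy 2.4.6, pandas 2.3.3 and matplotlib 3.10.9.

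The members, the other gene lists and the markers were chosen with earlier results of these data known. Full values are given for members called in any comparison, for up to 6 members per comparison with the largest changes whose groups did not overlap, for those at 0 in a line, and for CPT1A, CPT2, PPARA and PPARGC1A. Alternatives were the offset, filter, centring, equal numbers of peaks, stricter peaks (−log10 q of at least 5), a window of 2000 bp, both ends, the annotated start, only the libraries of a comparison, a replicate block and leaving out each library.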

Additional observations from a re-analysis of the deposited data

How the results depend on the processing

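The median difference between the lines over the 33 genes in untreated cells, 0.23, was 0.3692 with an offset of 100 bp and 0.1072 within 2 kb, and 0.1163 to 0.231 when 1 library was left out. With annotated starts, 8 of 25 members were called between the treated lines, 4 in each direction. The share of all genes called between the lines with starts is not given here. Without centring the median was -0.0635 after IFNbeta in CFPAC1 and 0.0797 in the knockout clones. After IFNbeta in CFPAC1, 1 member was called, ECI2, with equal numbers of peaks or stricter peaks. In the knockout clones 1 was called, ACAA1 in those 2 settings and PPARGC1A with starts, and 0 to 1 when a clone was left out (ACAA1 without knockout clone 1, ACADL without knockout clone 2). Within 2 kb the line difference of ACAA1 reversed, to 0.12 and 0.0633. The cause was not tested. Between the treated lines the median over members was 0.0453 to 0.1466 when 1 library was left out, beside 0.0921 with all libraries.

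Over all genes, the 153 calls after IFNbeta in CFPAC1 became 98 with starts, 0 with only those libraries and 17 to 116 when 1 was left out, the lowest without the first treated library. The 101 in MiaPaCa2 became 66, 40 and 36 to 265, the lowest without the first treated and the highest without the second untreated library. The 194 of the knockout became 119 with the replicate block, 0 with only the clones and 33 to 832 when 1 clone was left out, the lowest without wild-type clone 2 and the highest without knockout clone 1. The 9 of the difference in response became 27 with an offset of 100 bp, 57 without the filter, 17 without centring or with stricter peaks, 16 with only the bulk libraries and 2 to 34 when 1 was left out, the lowest without either untreated CFPAC1 library and the highest without the second untreated MiaPaCa2 library.

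Deviations of same-numbered libraries correlated between -0.153 and 0.205 over 15 pairs of groups, the highest between untreated and treated CFPAC1. The labels do not say whether same-numbered libraries share a culture. The correlations cannot decide it, since no value for known pairs was at hand. With the replicate block 17 members were called between the untreated lines (11 higher, 6 lower), 13 between the treated lines and 0 in the other 4 comparisons. The shares of all genes called between the lines with the block are not given here.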
